A study of Mus musculus with 12 samples.

Results

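A set of 10 genes of nicotinamide adenine dinucleotide (NAD) metabolism were followed in mouse hearts that lack the mitochondrial RNase P nuclease MRPP3. They were found by gene symbol among the 44450 loci listed for each library, and all 10 of 10 were present as loci with a single gene name. Nampt, Nmrk1 and Nmrk2 start NAD salvage, Nmnat1 and Nmnat3 finish it, Nadk and Nnt serve the phosphorylated form NADP(H), and Sirt1, Sirt3 and Sirt5 consume NAD. Hearts came from C57BL/6N mice aged 11 weeks. The 3 control libraries are of genotype Mrpp3 loxP/loxP, with both copies of the gene flanked by loxP sites and intact. The 3 knockout libraries carry the same alleles and in addition +/Ckmm, a Cre transgene under the muscle creatine kinase promoter, which is active in heart and skeletal muscle cells, so other cells of the heart keep the gene. No control carried the transgene, so its own effect and that of the deletion cannot be told apart. Total RNA was sequenced after rRNA removal. Levels are in FPKM, a unit per length of transcript, so different genes can be compared on it. The question is how transcripts for making and using NAD differ once this enzyme is lost from heart muscle.

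NAD carries electrons from fuel oxidation to the respiratory chain and is also broken down by enzymes that use it as a substrate. Cells rebuild it mainly from nicotinamide, which nicotinamide phosphoribosyltransferase (NAMPT) turns into nicotinamide mononucleotide, or from nicotinamide riboside, which the kinases NMRK1 and NMRK2 phosphorylate to the same product. The enzymes NMNAT1, in the nucleus, and NMNAT3, usually placed in mitochondria, then complete the molecule. NMRK2 is the kinase of striated muscle. NADK phosphorylates NAD to NADP in the cytosol, and NNT uses the proton gradient of the inner mitochondrial membrane to reduce NADP to NADPH. Sirtuins remove acyl groups from proteins and split NAD as they do so. SIRT1 acts mainly in the nucleus, and SIRT3 and SIRT5 in mitochondria.

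The promoters of the 3 salvage genes are shown because these genes make the same product and differed in response. Each window holds 250 bases before and 50 after the start site in the RefSeq promoter table (GRCm38.p6, the C57BL/6J reference), 5′ to 3′ on the strand of the gene. Capitals mark a TATA box (TATAAA). The windows are chr10:81201988-81202287 on the minus strand for Nmrk2, chr19:18631766-18632065 on the plus strand for Nmrk1 and chr12:32820085-32820384 on the plus strand for Nampt.
Nmrk2: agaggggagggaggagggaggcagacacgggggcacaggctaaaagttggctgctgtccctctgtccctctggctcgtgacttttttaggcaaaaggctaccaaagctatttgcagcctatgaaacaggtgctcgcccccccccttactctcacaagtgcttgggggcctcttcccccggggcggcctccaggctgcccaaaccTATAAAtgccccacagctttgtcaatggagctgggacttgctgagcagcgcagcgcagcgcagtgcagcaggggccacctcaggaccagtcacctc
Nmrk1: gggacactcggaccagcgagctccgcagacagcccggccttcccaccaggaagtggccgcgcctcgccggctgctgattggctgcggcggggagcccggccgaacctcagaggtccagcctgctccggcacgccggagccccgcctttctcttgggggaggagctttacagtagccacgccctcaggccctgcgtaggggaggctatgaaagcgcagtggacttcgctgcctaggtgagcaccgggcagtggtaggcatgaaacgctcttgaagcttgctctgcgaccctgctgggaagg
Nampt: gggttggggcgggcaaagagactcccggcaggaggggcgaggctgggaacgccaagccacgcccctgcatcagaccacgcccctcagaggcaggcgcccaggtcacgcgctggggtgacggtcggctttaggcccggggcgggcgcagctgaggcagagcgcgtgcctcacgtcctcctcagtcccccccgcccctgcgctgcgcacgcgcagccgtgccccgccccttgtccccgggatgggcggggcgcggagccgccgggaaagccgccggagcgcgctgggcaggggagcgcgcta
The Nmrk2 window had a GC content of 60.7% and 8 CpG dinucleotides, against 67.3% and 23 for Nmrk1 and 76.3% and 36 for Nampt. The median over all 32851 windows of the table was 52.7% and 7. The table held 12 windows for 9 of the 10 genes. On either strand, the TATA box stood in the Nmrk2 window alone of these 12, at 46 to 41 bases before the start site, and in 13.6% of all windows. The RefSeq span of Nmrk2 runs to 81202265, so most of its window, the TATA box included, lies within the gene. The start sites of the Nmrk1 and Nampt windows are the first bases of those genes, so the 3 windows are not placed alike. The core of the amino acid response element bound by ATF4 (TGATGNAA) was in 0 of the 12 and in 3.97% of all windows. The E-box (CACGTG) was in the Sirt1 window and in the second of the Nadk windows, and in 7.15% of all windows. The nuclear receptor site AAGGTCA was in those of Nmnat3 and Sirt5, and in 4.72% of all windows. The motifs do not overlap each other in these windows, and a match describes letters only.

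The files give no read totals. Steps between low values placed the knockout libraries at 2.06 to 2.57 times the depth of control replicate 1, and the other controls at 1.32 and 1.34 times, so depth differed with genotype. Prorp, the gene for MRPP3, had 2.64 to 3.49 FPKM in controls and 0.441 to 0.701 in knockouts, so it was low in every library labelled knockout. The 10 fixed markers of ventricular heart muscle summed to between 43787 and 49180 FPKM in controls and to 18618, 9391 and 20193 in knockout replicates 1 to 3, and 9 of the 10 fell. Atrial markers summed to 42.9 to 122 FPKM in controls and to 2072, 14334 and 2337 in knockouts, highest in knockout replicate 2. Nppa made up 1948 and 2327 FPKM of the sums of knockout replicates 1 and 3, and in knockout replicate 3 Myl7 was at 0.0961 FPKM and Sln at 0. Of the 6 atrial markers Nppa and Dkk3 rose, and Myl7, Myl4 and Sln overlapped between the groups. Knockout replicate 2 also held the most red blood cell RNA (21895 FPKM over 5 markers, against 622 to 2902 elsewhere). Macrophage markers stood at 126 to 135 and at 179 to 196 FPKM, and 5 of 8 rose. Fibroblast markers stood at 325 to 401 and at 337 to 571 FPKM, and 4 of 7 rose (Col1a1, Col1a2, Col3a1 and Tcf21). Dcn was lower in every knockout than in any control but did not pass (log2 fold change -0.31, limma adjusted p = 0.14). Pdgfra (-0.26) and Lum (0.63) did not pass either. In tissue of mixed cells, fewer cells of a type and less RNA per cell cannot be told apart. Myl7 was at 1.9, 0 and 0.313 FPKM in controls and at 43.5 and 911 FPKM in knockout replicates 1 and 2. Whether the libraries differ in the part of the heart sampled was not tested.

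All 10 genes reached 1 FPKM in every library and were therefore tested whatever their change. Knockout and control were compared by limma on log2(FPKM + 0.5) over 12181 loci, with Benjamini-Hochberg adjustment over all of them and a threshold of 0.05. Fold changes are given on this log2 scale, knockout over control. Of the 10 genes, 1 rose (Nmrk2), 6 fell (Nampt, Nmnat1, Nmnat3, Nnt, Sirt1 and Sirt5) and 3 did not pass (Nmrk1, Nadk and Sirt3). Over all loci 35.7% were called, 16.1% higher and 19.5% lower. The median log2 fold change was -0.55 for the 10 genes and -0.02 for all tested loci. Every knockout library lay below every control for 7 of the 10 genes and above for 2, where 28.7% and 23.6% of all loci did so. Scaling each library to the same summed FPKM turned the counts of the 10 genes to 2 higher and 5 lower, and those of all loci from 1966 higher and 2377 lower to 3229 and 1400. That scaling moved the median over all loci to 0.20. Measured from the median of each setting, Nampt stood at -1.13 without and with this scaling, Nnt at -1.33 and -1.32, and Sirt1 at -0.62 and -0.64. A single factor per library shifts nearly all loci alike, so this likeness follows from the method and does not test these genes.

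**Figure D1:**
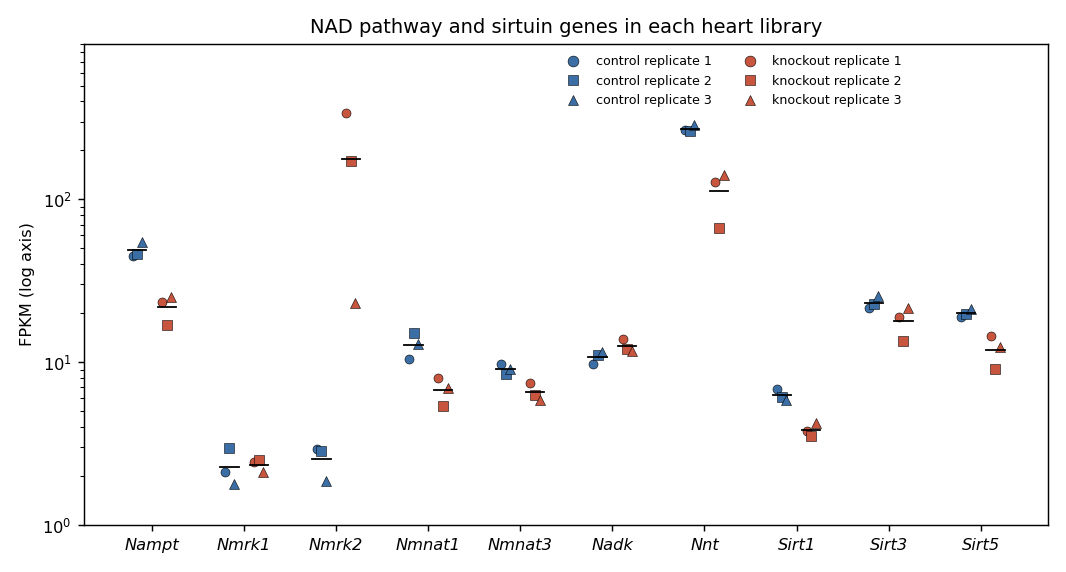
FPKM of the 10 genes in each of the 6 libraries, on a log axis, with controls in blue, knockouts in red, a marker shape for each replicate number and a black bar at each group mean. Nmrk2 ran from 23.1 to 340 FPKM in knockouts and from 1.87 to 2.94 in controls, while Nampt and Nnt lay lower in every knockout than in any control.

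Nampt, which encodes the enzyme usually regarded as limiting for NAD salvage, was lower in the knockout. It had 44.8, 46.0 and 55.0 FPKM in the controls and 23.5, 16.9 and 25.1 FPKM in the knockouts. The groups did not overlap, and knockout replicate 2 was lowest. The log2 fold change was -1.15 (95% interval -1.56 to -0.74, SE 0.18, adjusted p = 0.0031 by limma). It stayed between -1.26 and -0.98 with any one library left out, and was called each time. Nampt lies at 32820335 to 32853369 on chromosome 12 of GRCm38.

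Nmrk2, the kinase of striated muscle, was barely present in control hearts and abundant in the knockouts. Controls had 2.94, 2.83 and 1.87 FPKM, and knockouts 340, 171 and 23.1 FPKM. All knockouts lay above all controls, but the highest was 14.7 times the lowest among knockouts, against 1.58 times among controls. Knockout differed from control by a log2 fold change of 5.21 (95% interval 3.20 to 7.22, SE 0.86, adjusted p = 0.0040 by limma). Knockout replicate 3 was 9.09 times the control mean and knockout replicate 1 was 134 times. Without knockout replicate 3 the log2 fold change was 6.33 (adjusted p = 0.00037), and without knockout replicate 1 it was 4.41 (adjusted p = 0.0094). The size of the rise thus depended on the library while its call did not. The summed ventricular markers did not have the order of Nmrk2 among knockouts, with 18618 FPKM in knockout replicate 1 and 20193 FPKM in knockout replicate 3. The summed fibroblast markers had it, alone of the marker lists, with 571, 546 and 337 FPKM in knockout replicates 1 to 3. The 7 markers of fast skeletal muscle summed to at most 4.31 FPKM in any library, with Myh4 at 0 throughout. The part of cell makeup in the Nmrk2 values was not tested. Nmrk2 lies at 81198170 to 81202265 on chromosome 10.

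Nmrk1, the kinase of most other tissues, was low in both groups. It had 2.11, 2.96 and 1.78 FPKM in controls and 2.43, 2.49 and 2.12 FPKM in knockouts, and the groups overlapped. The log2 fold change was 0.05 (95% interval -0.38 to 0.48, SE 0.18, adjusted p = 0.85 by limma), and the interval lies wholly below that of Nmrk2. Its sign turned without control replicate 3 (-0.08) and with array weights (-0.02).

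Transcripts of the routes were compared by the FPKM of Nmrk1 and Nmrk2 together over that of Nampt. This ratio within a library does not depend on how libraries are scaled, and does not measure the use of either route. It was 0.113, 0.126 and 0.0664 in controls and 14.6, 10.3 and 1.01 in knockouts. Nampt was thus the more abundant transcript in every control, and the kinase transcripts were in knockout replicates 1 and 2. In knockout replicate 3 the transcript levels were about equal. On the log2 scale the group means were -3.35 ± 0.49 and 2.41 ± 2.10 (SD, n = 3 each), a difference of 5.76. Nmrk2 alone over Nmrk1 went from 1.39, 0.955 and 1.05 in controls to 140, 68.6 and 10.9 in knockouts, so the kinases were about equal in control hearts and Nmrk2 made up nearly all of the sum in knockouts.

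**Figure D2:**
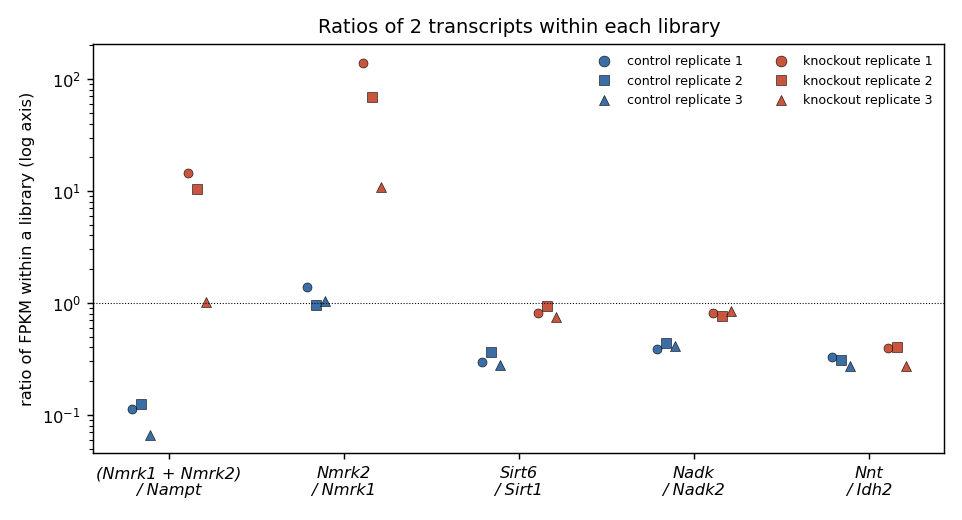
Ratio of FPKM of named transcripts within each library, on a log axis, with controls in blue, knockouts in red and a dotted line at 1. The ratio of the nicotinamide riboside kinases to Nampt lay between 0.0664 and 0.126 in controls and between 1.01 and 14.6 in knockouts, while Nnt over Idh2 overlapped between the groups.

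Nmnat1 and Nmnat3, which serve the last step, were lower in the knockout. Nmnat2, the other gene of this step, had 0.0366 to 0.227 FPKM over all libraries and was too low to be tested. Nmnat1, the nuclear enzyme, had 10.5, 15.0 and 13.0 FPKM in controls and 7.95, 5.36 and 6.90 FPKM in knockouts, without overlap. Its log2 fold change was -0.88 (95% interval -1.31 to -0.46, SE 0.18, adjusted p = 0.0095 by limma), and it was called with each library left out. Nmnat3 had 9.72, 8.46 and 9.10 FPKM in controls and 7.44, 6.24 and 5.87 FPKM in knockouts. These groups did not overlap either, but they lay close. On the log2 scale the change was -0.46 (95% interval -0.75 to -0.16, SE 0.13, adjusted p = 0.029 by limma). That call was lost without any one control (adjusted p = 0.10, 0.066 and 0.085) and without knockout replicate 2 or 3 (0.052 and 0.063). It was also lost after scaling to the same sum (log2 fold change -0.25, adjusted p = 0.26). Nampt and Nmnat1, successive steps of one route, kept a similar ratio, at 4.26, 3.07 and 4.23 in controls and 2.96, 3.14 and 3.63 in knockouts.

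Nnt, the transhydrogenase of the inner mitochondrial membrane, was the most abundant of the 10 transcripts in controls and was lower in the knockout. It had 266, 262 and 288 FPKM in controls and 127, 66.9 and 141 FPKM in knockouts. The controls lay within 1.1 times of each other, and knockout replicate 2 stood lowest. The log2 fold change was -1.35 (95% interval -2.0 to -0.70, SE 0.28, adjusted p = 0.0092 by limma). Without knockout replicate 2 it was -1.02 (adjusted p = 0.0014). C57BL/6J mice are known to carry a deletion of several exons in Nnt, which C57BL/6N mice lack. One FPKM value per locus does not show exons, so the values do not test the allele in any library. Nnt lies at 119335527 to 119409257 on chromosome 13.

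Nadk, the cytosolic NAD kinase, had 9.77, 11.0 and 11.6 FPKM in controls and 13.9, 12.1 and 11.7 FPKM in knockouts. All knockouts were above all controls, the nearest values being 11.7 and 11.6. This gave a log2 fold change of 0.21 (95% interval -0.08 to 0.50, SE 0.12, adjusted p = 0.22 by limma) and did not pass. It passed after scaling to the same sum (0.44, adjusted p = 0.034) and with array weights (0.31, adjusted p = 0.027). Nadk2, the mitochondrial NAD kinase, fell from 26.0 ± 1.74 to 15.6 ± 1.67 FPKM (log2 fold change -0.73, limma adjusted p = 0.0046). Within libraries Nadk over Nadk2 was 0.389, 0.441 and 0.412 in controls and 0.811, 0.768 and 0.844 in knockouts. The mitochondrial kinase thus remained the more abundant transcript in every library, by a smaller margin in knockouts.

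**Figure D3:**
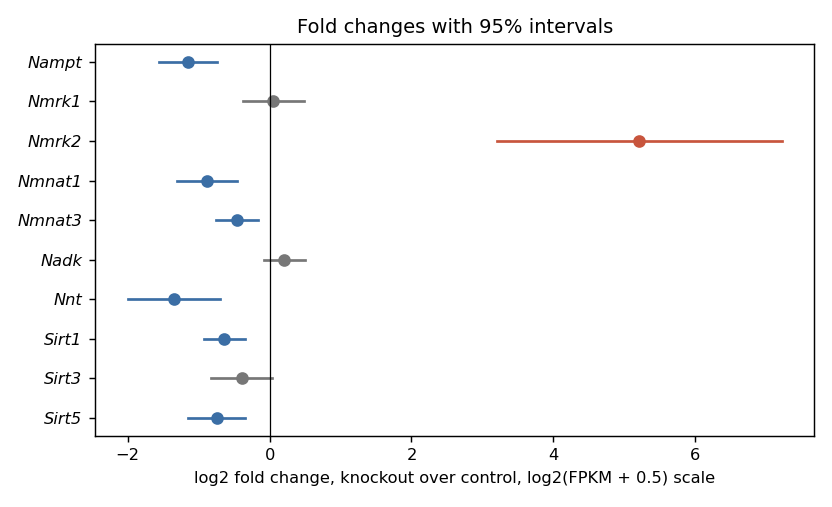
Change of each of the 10 genes from control to knockout, as a log2 fold change of FPKM + 0.5, with bars for the 95% interval from limma. Red marks the gene called higher (Nmrk2, 5.21), blue the 6 called lower, from -1.35 for Nnt to -0.46 for Nmnat3, and grey the 3 that did not pass.

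Sirt1, the nuclear deacetylase, was lower in every knockout. It had 6.80, 6.07 and 5.87 FPKM in controls and 3.79, 3.51 and 4.23 FPKM in knockouts. The log2 fold change was -0.64 (95% interval -0.92 to -0.35, SE 0.12, adjusted p = 0.0074 by limma), and it was called with each library left out. The call was lost after scaling to the same sum without loci of mitochondrial DNA (-0.42, adjusted p = 0.067). Sirt5, which removes succinyl, malonyl and glutaryl groups in mitochondria, had 19.0, 19.8 and 21.2 FPKM in controls and 14.4, 9.06 and 12.4 FPKM in knockouts. Its log2 fold change was -0.74 (95% interval -1.15 to -0.34, SE 0.17, adjusted p = 0.015 by limma). It missed the threshold without control replicate 2 or 3 (adjusted p = 0.052 and 0.057) and after scaling to the same sum without loci of mitochondrial DNA (-0.50, adjusted p = 0.052).

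Sirt3, the main mitochondrial deacetylase, had 21.6, 22.7 and 25.4 FPKM in controls and 18.8, 13.4 and 21.6 FPKM in knockouts. The highest knockout and the lowest control were equal to 3 digits, and knockout replicate 2 was again lowest. The log2 fold change of -0.39 (95% interval -0.82 to 0.04, SE 0.18, adjusted p = 0.14 by limma) did not pass, and passed only with array weights (-0.31, adjusted p = 0.046). Sirt5 over Sirt3 was 0.879, 0.875 and 0.833 in controls and 0.768, 0.679 and 0.574 in knockouts, so the balance of these mitochondrial sirtuins lay lower in every knockout.

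Of the other 4 sirtuins, 2 rose and 0 fell by limma, the same numbers as at an unadjusted p under 0.05. The shares were 50.0% higher and 0.0% lower, against 16.1% and 19.5% over all loci. Sirt6, a chromatin deacetylase, rose from 1.94 ± 0.286 to 3.18 ± 0.0975 FPKM (log2 change 0.59 with SE 0.14, adjusted p = 0.016 by limma), a call lost without control replicate 3 (adjusted p = 0.056). The locus of Sirt7 also carries Mafg and other names, so its rise from 15.0 ± 1.68 to 20.0 ± 1.73 FPKM (limma adjusted p = 0.046) cannot be assigned to Sirt7. That call was lost without any one library (adjusted p from 0.051 to 0.16). Sirt2 and Sirt4 did not pass. The count of risen sirtuins was 0 without control replicate 3 and 1 without control replicate 1 or 2 or knockout replicate 1 or 3. Because Sirt1 and Sirt6 moved in opposite directions, their ratio within a library was also read. Sirt6 over Sirt1 was 0.295, 0.362 and 0.278 in controls and 0.819, 0.936 and 0.741 in knockouts, so these nuclear sirtuins were closer to equal in knockouts.

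The order of levels among the 10 genes changed mainly through Nmrk2. In controls Nnt was highest, followed by Nampt, Sirt3, Sirt5, Nmnat1, Nadk, Nmnat3, Sirt1, Nmrk2 and Nmrk1, and only the neighbours Nmnat1 and Nadk, and Nmrk2 and Nmrk1, had overlapping ranges. In knockouts Nmrk2 had the highest mean, with a range that overlapped those of Nnt and Nampt, and Nmrk1 was lowest. Nampt, Sirt3, Nadk and Sirt5 followed Nnt in that order, each overlapping the next, and Nmnat1, Nmnat3, Sirt1 and Nmrk1 came last.

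The falls were set beside the loss of heart muscle transcripts. Per 1000 FPKM of the summed ventricular markers, Nnt had 6.09, 5.55 and 5.85 FPKM in controls and 6.83, 7.13 and 7.00 FPKM in knockouts. Nampt had 1.02, 0.974 and 1.12 in controls and 1.26, 1.79 and 1.24 in knockouts on the same scale. On it all 10 genes, Sirt1, Sirt5, Nmnat1 and Nmnat3 included, were higher in every knockout than in any control, so each called fall was smaller than that of the summed markers. Because the marker sum itself fell, a locus without change is raised on this scale. Nmrk1, with a log2 fold change of 0.05 in the fit, stood at 1.68 on it. The share of all loci higher on this scale was not computed, so the count is not particular to these genes. The markers differed among themselves, from -2.81 for Pln to -1.06 for Tnnt2 and -0.98 for Myh6 in log2 fold change, so these last 2 had smaller changes than Nnt and Nampt. Knockout replicate 2 had the lowest ventricular sum and was the lowest knockout for 6 of the 10 genes. The share of all loci with their lowest knockout value in this library was not computed. It also held the most atrial and red blood cell RNA. The part of muscle cell number or state in these falls was not tested.

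Genes of the wider pathway, from 6 further lists with 73 genes, were read in the same fit. Of these, 59 loci were tested, of which 10 rose, 16 fell and 33 did not pass, and the median log2 change was -0.18. The shares were 16.9% higher and 27.1% lower, against 16.1% and 19.5% over all loci. Scaling to the same sum gave 17 higher and 11 lower. Of 13 other genes of NAD synthesis only 4 were tested, and 1 fell. This was Naprt, which starts synthesis from nicotinic acid, from 4.66 ± 0.854 to 1.49 ± 0.250 FPKM (log2 change -1.37 with SE 0.17, adjusted p = 0.0016 by limma). Of the genes that make NAD from tryptophan, Tdo2, Ido1, Ido2, Kmo, Kynu, Haao and Qprt were under 1 FPKM in every library. The locus of Afmid, the formamidase of that route, had 57.1 to 63.3 FPKM in controls and 44.8 to 48.4 FPKM in knockouts and did not pass (limma adjusted p = 0.052). It also carries Gm20708 and Syngr2, so its level cannot be assigned to Afmid. Nadsyn1 and Pnp did not pass either.

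Of 17 tested loci for enzymes that consume NAD or clear nicotinamide, 3 fell (17.6%, close to the 19.5% over all loci), 0 rose and 14 did not pass by limma, and the median log2 change was -0.17. At an unadjusted p under 0.05, 5 were lower and 3 higher, and scaling to the same sum turned the calls to 1 lower and 4 higher. Parp1, the main poly(ADP-ribose) polymerase of DNA repair, fell from 18.2 ± 1.58 to 13.5 ± 0.964 FPKM (log2 fold change -0.42, limma adjusted p = 0.032) at a locus that also names a microRNA. This call was lost without any one library except knockout replicate 2 (adjusted p from 0.055 to 0.13) and after scaling to the same sum (0.32). Parp6 fell by 0.50 on the log2 scale (limma adjusted p = 0.029), a call lost without control replicate 2 or 3 or knockout replicate 2 or 3 (adjusted p from 0.058 to 0.11). The third call, at a locus shared by Parp10 and Plec (log2 fold change -0.70), cannot be assigned to Parp10. The count of falls was 1 without control replicate 2 or 3. Cd38, a glycohydrolase that degrades NAD and is abundant on leukocytes, had 3.94 ± 0.360 FPKM in controls and 5.59 ± 0.975 in knockouts and did not pass (log2 fold change 0.45, limma adjusted p = 0.058).

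Genes listed as NADPH producers moved in both directions, 6 higher and 5 lower of 16. The shares were 37.5% and 31.2%, against 16.1% and 19.5% over all loci. G6pdx and Pgd, the dehydrogenases of the pentose phosphate pathway, rose from 2.58 ± 0.245 to 8.90 ± 1.65 FPKM and from 4.84 ± 1.03 to 11.1 ± 1.86 FPKM (log2 changes 1.60 and 1.12, limma adjusted p = 0.00069 and 0.0038). Aldh1l2, the mitochondrial formyltetrahydrofolate dehydrogenase, rose by a log2 fold change of 2.45 (SE 0.30). Mthfd2 and Mthfd1l rose by 6.05 and 3.48 on that scale. MTHFD2 mainly reduces NAD and MTHFD1L is a ligase, so neither is chiefly a source of NADPH. Both were under 1 FPKM in every control and were tested through their knockout levels, and Aldh1l1 through its control levels. Me2, a malic enzyme that also prefers NAD, rose from 2.51 ± 0.202 to 5.54 ± 0.395 FPKM.

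Idh2, Me3 and Mthfd2l, which like Aldh1l2 encode mitochondrial enzymes that can reduce NADP, fell, and Glud1, another of these, did not pass. Idh2, the NADP-dependent isocitrate dehydrogenase, fell from 901 ± 127 to 333 ± 176 FPKM (log2 change -1.57 with SE 0.39, adjusted p = 0.018 by limma), a call lost without control replicate 2 or 3 (adjusted p = 0.054 and 0.067). Me3, the mitochondrial NADP-dependent malic enzyme, fell from 52.7 ± 2.19 to 21.8 ± 4.68 FPKM, and Mthfd2l fell by 1.06 on the log2 scale. Glud1, glutamate dehydrogenase, had 41.1 ± 1.87 FPKM in controls and 33.7 ± 6.18 in knockouts, with overlap (log2 fold change -0.30, limma adjusted p = 0.17). Aldh1l1, the cytosolic formyltetrahydrofolate dehydrogenase, fell by 1.13 on that scale. Without control replicate 2 or 3 the list of NADPH producers held 3 falls, and without knockout replicate 1 or 3 it held 4 rises. Nnt over Idh2 was 0.327, 0.312 and 0.275 in controls and 0.399, 0.405 and 0.274 in knockouts, with overlap. G6pdx over Nnt was 0.0103, 0.0103 and 0.00799 in controls and 0.0553, 0.143 and 0.0717 in knockouts, so Nnt remained the more abundant transcript in every library.

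**Figure D4:**
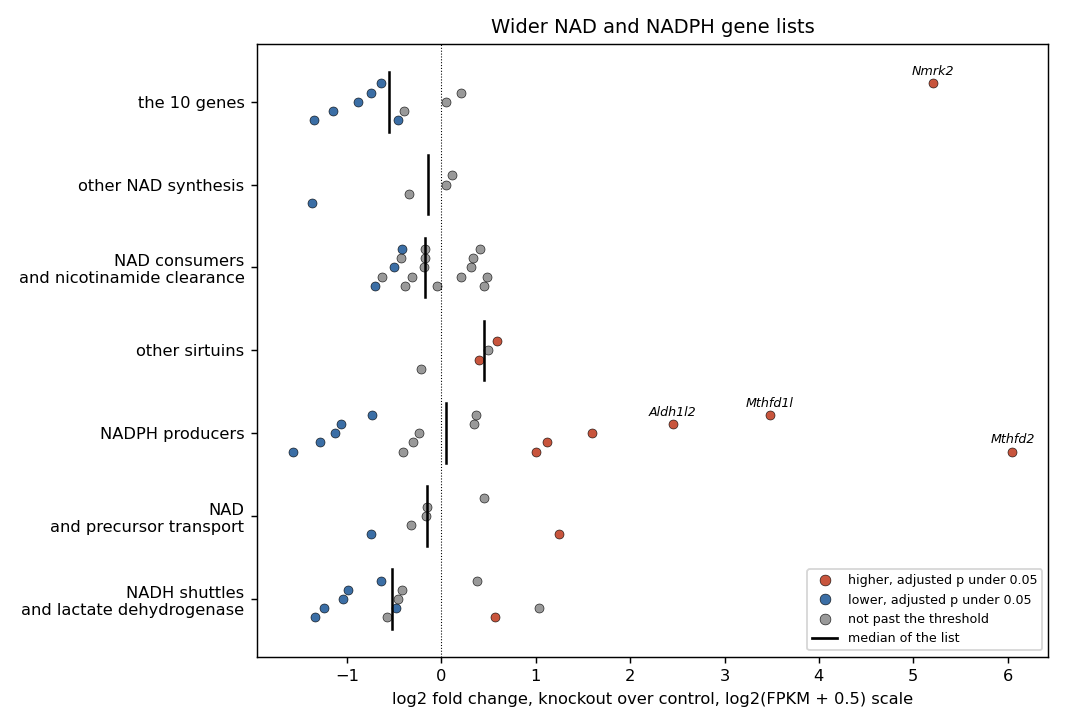
Change of each tested gene from control to knockout, as a log2 fold change of FPKM + 0.5, by list, with red for genes called higher, blue for genes called lower, grey for genes that did not pass and a black bar at each median. The 10 genes have a median of -0.55. The genes listed as NADPH producers spread from -1.57 (Idh2) to 6.05 (Mthfd2, whose product mainly reduces NAD). NAD consumers spread from -0.70 (the locus of Parp10 and Plec) to 0.48 (Parp4), with a median of -0.17.

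Of 6 tested loci for transport of NAD and its precursors, 1 rose and 1 fell. These shares of 16.7% each were close to the 16.1% higher and 19.5% lower over all loci. Nt5e, the surface nucleotidase that can make nicotinamide riboside outside the cell, rose from 8.08 ± 0.679 to 21.7 ± 11.7 FPKM (log2 change 1.25 with SE 0.32, adjusted p = 0.020 by limma), with 15.3, 14.5 and 35.2 FPKM in the knockouts. Slc29a1, a nucleoside transporter, fell from 37.7 ± 1.85 to 23.1 ± 6.52 FPKM (limma adjusted p = 0.032). Both calls were lost without any one control (adjusted p from 0.052 to 0.10), which left 0 calls in either direction in this list. Slc25a51, whose product carries NAD into mitochondria, had 24.2 to 29.0 FPKM in controls and 21.6 to 25.6 in knockouts, at a locus with one more name, and did not pass (limma adjusted p = 0.38).

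Of 12 genes that move NADH electrons between cytosol and mitochondria or to lactate, 6 fell and 1 rose. The shares were 50.0% lower and 8.3% higher, against 19.5% and 16.1% over all loci. The median log2 change was -0.53, against -0.02 over all tested loci. Ldhb, the lactate dehydrogenase subunit of heart, fell from 660 ± 18.1 to 272 ± 91.7 FPKM (log2 change -1.34 with SE 0.28, adjusted p = 0.0096 by limma). The malate carrier gene Slc25a11 fell from 258 ± 14.2 to 113 ± 33.1 FPKM. Slc25a13, an aspartate-glutamate carrier, fell by 1.04 on the log2 scale, a call lost without any one control (adjusted p = 0.070, 0.062 and 0.059). Gpd2, the mitochondrial glycerophosphate dehydrogenase, rose from 2.84 ± 0.0297 to 4.47 ± 0.393 FPKM (log2 fold change 0.57, limma adjusted p = 0.010). The count of falls was 3, 2 and 2 without control replicate 1, 2 or 3, and 3 genes were higher without knockout replicate 2.

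The tested loci whose levels most resembled those of Nmrk2 over the 6 libraries were Scarb1, Poglut1, Sparc, Cpsf3l and Gstm4, with Pearson r of log2(FPKM + 0.5) from 0.9871 to 0.9961. Sparc, a secreted matrix protein, had 90.3, 84.5 and 90.2 FPKM in controls and 237, 222 and 137 FPKM in knockouts, which repeats the order of the knockouts in Nmrk2 over a much smaller range. For Nampt they were Gm5069, Arhgap5, Gpbp1, Msl3 and Auh, with r from 0.9971 to 0.9993. Auh, an enzyme of leucine breakdown, had 42.8, 47.4 and 51.5 FPKM in controls and 22.5, 17.0 and 24.3 FPKM in knockouts. Among the 10 genes, Nnt (0.981) and Sirt5 (0.969) were most like Nampt. These values rest on 6 libraries in 2 genotypes with different depths, and describe likeness only.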

How the data were processed

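Total RNA of 3 control and 3 knockout hearts was analysed, grouped by source name and genotype. Whether each sample is a separate animal is not in the labels. The p-values then reflect only how these samples vary, which may be technical. A further 6 libraries of mitochondrial RNA ends were not analysed here. The deposited values are FPKM, 1 per locus and library, per the file headers. Per the submitters' processing notes the tools include HISAT 0.1.6, StringTie 1.1.0, Cufflinks 2.2.1 and Cuffdiff, and the builds are GRCm38 and mm10. The sources used here do not give the role of each tool, the annotation, any scaling between libraries or whether strand was used.

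No count model was applied to FPKM. From them log2(FPKM + 0.5) was computed and fitted with limma 3.58.1 in R 4.3.3 (moderated two-sided tests, variance trended on mean level) over loci that reached 1 FPKM in 3 or more libraries. The fit was tested on simulated data. For knockout against control over 12181 loci, 56% of 100 loci changed 2-fold and 92% of 100 changed 4-fold were recovered, and 6.33% of calls were unchanged loci. The simulation changed no other loci and had no depth difference, whereas 35.7% of real loci were called, so these rates may not carry over. Relative depth is the most frequent ratio of low values (under 1 FPKM) between libraries at noncoding and pseudogene loci, from 372 to 428 loci per library. Whole reads were not recovered, so no counting interval is given. In the main fit, replicate numbers were not used to pair the samples.

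The 10 genes and the gene lists were chosen with earlier results of these data known. Named by rule were the 10 genes, up to 3 called members in each direction from each other list, the 5 loci most like Nmrk2 and Nampt, and the targeted gene. Other genes, the ratios, the motifs and the values per ventricular marker were chosen after their values were seen. Promoter sequences, positions and the symbol Prorp (listed as 1110008L16Rik) come from RefSeq tables of GRCm38.p6. Alternatives covered pseudocounts, filters, scalings, variance models, the replicate block and each library left out.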

Additional observations from a re-analysis of the deposited data

How the results depend on the processing

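Nmrk2, Nampt, Nmnat1 and Nnt were called with the same sign under all 17 alternatives, at log2 fold changes of 4.41 to 6.34, -1.26 to -0.90, -1.01 to -0.65 and -1.55 to -1.02. Nmnat3 was called in 9 of 17, Sirt5 in 14 and Sirt1 in 16. Nmrk1 turned to -0.02 with array weights and ranged from -0.08 (without control replicate 3) to 0.22 with single libraries left out. Scaling to the same sum gave 3229 loci higher and 1400 lower, and 3378 and 1282 when loci of mitochondrial DNA were removed first. Of the 10 genes 2 were then higher under both, Nadk being added, with 3 lower under the latter, and 2 were higher with array weights. Of the other lists' genes 17 were higher under both scalings and 25 lower with array weights. With single libraries left out, loci called ranged from 1207 to 1954 higher and from 1262 to 2384 lower, and other list genes called lower from 7 to 19, fewest without control replicate 2 or 3 (7). The ratio of the riboside kinases to Nampt changed by 5.61 with 0.5 FPKM added and by 5.04 to 6.97 with single libraries left out, against 5.76. With the replicate block, 1 of the 10 genes was higher and 5 were lower, Nmnat3 being lost (adjusted p = 0.053). Same-numbered libraries deviated from their group means with correlations of -0.083, -0.064 and -0.006, and no control correlated best with its own number. Deviations within groups of 3 depend on each other, so these values cannot exclude a pairing. The causes of these shifts were not tested. Depth was lower in controls, which limits what their lowest values show.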
